A study of Mus musculus with 36 samples.

Results

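The genes of fatty acid uptake and intracellular fatty acid binding were examined in mouse liver. These are 10 of the 54532 genes in the count table, found by their gene symbol, and each had more than 100 counts summed over the 36 libraries, so all 10 were tested: Cd36, Slc27a1, Slc27a2, Slc27a4, Slc27a5, Fabp1, Fabp2, Fabp4, Fabp5 and Acbd5. The livers came from male mice of 2 to 3 months on the C57Bl/6NCrl background, kept on chow in a light-dark cycle. KO mice were homozygous for the Thrb knockout (THRB-/-), an allele of the whole body that impairs both isoforms of thyroid hormone receptor beta. The controls, labelled WT, were heterozygous (THRB+/-), so they carry the same allele once and are not mice free of it. Livers were taken every 4 h from ZT2 to ZT22 (zeitgeber time, where ZT0 is lights on), with 3 mice per genotype and time, 18 per genotype and 36 in all, each mouse giving 1 liver and 1 poly-A RNA library. The 3 mice of a group carry the letters a, b and c.

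Long-chain fatty acids reach the hepatocyte from plasma bound to albumin or from lipoproteins. CD36 is a membrane receptor that facilitates their entry, and the fatty acid transport proteins of the SLC27 family couple uptake to acyl-CoA synthesis. Inside the cell, fatty acid binding proteins carry the free acids, and acyl-CoA binding proteins hold the activated ones, with ACBD5 sitting on peroxisomes. Several of these genes are known targets of nuclear receptors that bind fatty acids, and thyroid hormone receptors are DNA-binding receptors of the same superfamily.

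Total counts on genes ranged from 29063273 to 39913574 in WT libraries and from 31008555 to 42530551 in KO libraries. The 10 genes together took 0.480 to 0.764% of the counts in WT and 0.459 to 0.702% in KO libraries, of which Fabp1 made up 61.7 to 71.1% and 53.2 to 66.9%. Thrb itself was at 28.9 ± 3.69 CPM (counts scaled to library size with TMM factors; SD, n = 18) in WT and 31.5 ± 2.70 CPM (SD, n = 18) in KO livers, so its gene-level counts did not check the genotype labels. The 8 hepatocyte markers summed to a median of 90050 CPM in WT and 89728 CPM in KO livers. Of the 7 adipocyte markers, 6 were under 1 CPM, Adipoq, Plin1 and Lep among them, and of the 7 enterocyte markers 6 were under 1 CPM, Vil1 and Sis among them. The exceptions were Adrb3 and Apoa4. No tested marker of the 8 cell type lists passed the genotype test. The liver labelled b of KO at ZT22 had the highest summed hepatocyte (101925 CPM), endothelial (295 CPM) and stellate (278 CPM) markers and the lowest summed red blood cell markers (145 CPM) of the 36 livers.

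The 250 bases before the RefSeq start site (GRCm38.p6) are printed for 3 of the genes: Fabp1, the most abundant, Slc27a2, the transporter with a rhythm in both genotypes, and Cd36, which had the largest log2 fold change between genotypes. They run 5′ to 3′ on the gene's strand, and capitals mark the nuclear receptor half-site AGGTCA or its reverse complement TGACCT. The Fabp1 window lies at chr6:71199629-71199878 on the plus strand, the Slc27a2 window at chr2:126552774-126553023 on the plus strand, and the Cd36 window at chr5:17835897-17836146 on the minus strand. The Cd36 and Slc27a2 windows lie wholly inside the gene models of the files, which extend further 5′, and the Fabp1 window overlaps the start of its gene model.
Fabp1: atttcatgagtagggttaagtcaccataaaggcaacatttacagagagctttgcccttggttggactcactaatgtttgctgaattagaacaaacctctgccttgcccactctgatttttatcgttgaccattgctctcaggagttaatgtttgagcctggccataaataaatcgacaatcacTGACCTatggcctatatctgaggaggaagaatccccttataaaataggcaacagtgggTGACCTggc
Slc27a2: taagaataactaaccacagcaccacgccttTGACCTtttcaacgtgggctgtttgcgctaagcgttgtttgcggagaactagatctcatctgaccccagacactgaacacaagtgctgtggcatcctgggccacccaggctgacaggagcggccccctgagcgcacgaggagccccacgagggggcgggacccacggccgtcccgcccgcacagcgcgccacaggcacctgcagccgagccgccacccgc
Cd36: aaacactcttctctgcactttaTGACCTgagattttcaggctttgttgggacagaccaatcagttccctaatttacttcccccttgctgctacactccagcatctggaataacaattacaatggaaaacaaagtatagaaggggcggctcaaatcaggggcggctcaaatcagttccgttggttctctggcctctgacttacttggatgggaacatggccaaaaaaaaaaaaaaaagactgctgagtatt
A window was found for 7 of the 10 genes, 10 windows in all, with 3 for Slc27a1, 2 for Acbd5 and 1 for each other gene. Fabp4, Fabp5 and Slc27a5 had none. The half-site was present on either strand in 3 of the 10 windows, those of Fabp1, Slc27a2 and Cd36. There were 4 matches in all, 2 of them in Fabp1 at -67 to -62 and -9 to -4 from the start site. The half-site was present in 14.02% of the 32851 promoter windows of this length. None of the 7 genes' windows held 2 exact half-sites as a direct repeat 1 base or 4 bases apart. These exact arrangements occurred in 11 and 5 of all windows. Only exact letters were searched, so a repeat with a changed letter was not counted. In the Fabp1 window the match at -67 to -62 is followed, after 1 base, by tggcct, which differs from TGACCT in 1 letter. The TATA box letters TATAAA stood at -30 to -25 in Fabp1 and in 12.4% of all windows, and the E-box CACGTG, a letter sequence bound by clock factors, stood once, in a Slc27a1 window, against 6.02% of all windows. A D-box (TTATGTAA) was in none of the 7 genes' windows and in 0.819% of all. These matches are letters in a window and were not tested as binding sites.

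Fabp1, which encodes the liver fatty acid binding protein, was by far the most abundant of the 10 on a scale of CPM per kilobase of gene model, with a mean level of 7103 in WT and 6501 in KO livers. The bile acyl-CoA synthetase gene Slc27a5 followed at 337 and 356, and Slc27a2, which encodes a very long-chain acyl-CoA synthetase, at 218 and 238. Per kilobase of gene model, each of these neighbours was in this order in 18 of 18 livers of each genotype, and their ranges did not overlap. The remaining genes had means of 57.6 and 49.9 CPM per kilobase for the intestinal-type Fabp2, 22.3 and 24.4 for Acbd5, and 20.5 and 17.9 for Fabp5. Below these came Slc27a4 (9.46 and 8.98), Cd36 (4.13 and 5.66), Fabp4 (1.79 and 2.05) and Slc27a1 (1.53 and 1.61), the transporter best known from muscle and fat. The ranges of Acbd5 and Fabp5, of Fabp5 and Slc27a4, of Cd36 and Fabp4, and of Fabp4 and Slc27a1 overlapped in both genotypes, so these neighbours are not separated by their spread. In KO livers the ranges of Fabp2 and Acbd5 and of Slc27a4 and Cd36 overlapped as well. The order of the means below the first 3 depends on the length used. Per kilobase of the longest protein-coding transcript, the mean of Slc27a5 (359 in WT and 379 in KO livers) still exceeded that of Slc27a2 (280 and 306). On that scale their ranges overlap, and Slc27a2 is the higher in some single livers. The gene model of Fabp4 spans 4489 bases, its introns included, and its longest protein-coding transcript 896 bases. Per kilobase of transcript its mean level was 8.98 in WT and 10.2 in KO livers, above Cd36 (4.36 and 5.98). Fabp5, with a transcript of 987 bases, was then at 74.0 and 64.7, above Fabp2 at 57.6 and 49.9.

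**Figure D1:**
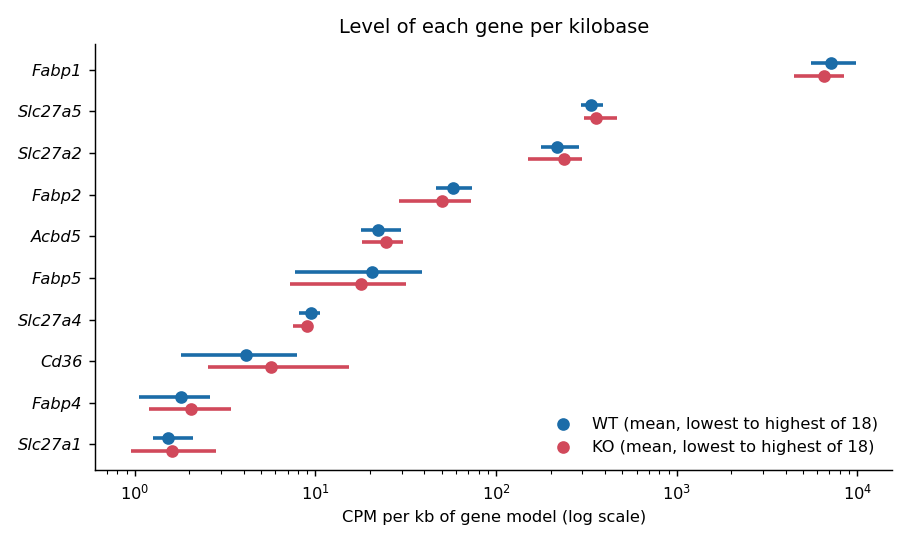
Level of each of the 10 genes in CPM per kilobase of gene model, on a log scale. Points are means and lines run from the lowest to the highest of 18 livers per genotype. Fabp1 stands alone at the top, Slc27a5 and Slc27a2 come next, and the bars of the lower genes overlap.

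Whether a liver without functional THRB differed in these genes was asked first over all sampling times, with time in the model. None of the 10 genes had an adjusted p under 0.05 (quasi-likelihood F test of edgeR, Benjamini-Hochberg over 17994 genes), where 171 of all tested genes did, or 0.95%. At an unadjusted p under 0.05 there were 6 of 10, of which 3 were higher and 3 lower in KO livers, against 12.1% of all genes. The median log2 fold change (KO minus WT) of the 10 was 0.08, against -0.0012 for all genes, whose lower and upper quartiles were -0.08 and 0.07. Slc27a2, Slc27a5 and Acbd5 had a higher KO mean and Slc27a4 a lower KO mean at 6 of 6 sampling times. That makes 4 of 10 genes on one side throughout, where 8.09% of all genes were. In bulk tissue, fewer cells of a type and less RNA per cell cannot be told apart. The study's text singles out Slc27a2, Fabp1, Fabp2 and Slc27a4 from these same mice, so their values here are no independent evidence. It reports a raised mesor (fitted daily mean) in KO livers for Slc27a2 and a lowered mesor for the other 3. It took a CircaCompare p under 0.05 without correction over genes, which is another measure and threshold than the adjusted p used here.

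**Figure D2:**
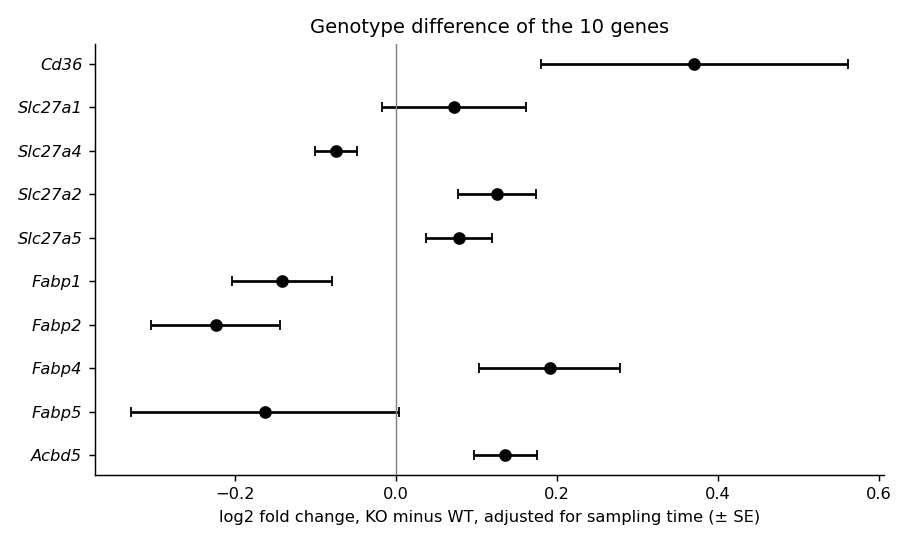
Log2 fold change (KO minus WT) of each gene with sampling time in the model, with bars of 1 standard error. Cd36 has the largest value and the widest bar, Slc27a4 the narrowest bar, and 4 genes lie below 0.

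Acbd5 came nearest to the threshold. Its protein binds very long-chain acyl-CoA at the peroxisomal membrane and tethers peroxisomes to the endoplasmic reticulum. WT livers ranged from 174 to 292 CPM with a median of 216, and KO livers from 177 to 297 CPM with a median of 234. The 2 ranges coincide over most of their length, since the time of day spreads both. Adjusted for time, its log2 fold change was 0.14 (SE 0.039, adjusted p = 0.0886, edgeR), and by DESeq2 it was 0.14 with an adjusted p of 0.0400, which passes. Over 10 alternatives its adjusted p ran from 0.0400 to 0.765, and it passed in that 1 alone. At ZT10 the KO livers had 278, 279 and 293 CPM and the WT livers 230, 255 and 277. At ZT14 they had 216, 224 and 236 CPM against 176, 179 and 216, and at ZT18 192, 218 and 236 CPM against 174, 180 and 182. The 3 KO livers lay above the 3 WT livers at each of these times, although the nearest KO and WT livers were 278 and 277 CPM at ZT10 and both 216 CPM, when rounded, at ZT14. At ZT2, ZT6 and ZT22 the livers of both genotypes overlapped.

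Among the transporters, Slc27a2 had 817 ± 119 CPM (SD, n = 18) in WT and 893 ± 156 CPM (SD, n = 18) in KO livers. Its log2 fold change was 0.13 (SE 0.048, adjusted p = 0.261), and it was 0.08 with letter a left out. All KO livers exceeded all WT livers at ZT14, with 945, 989 and 991 CPM against 778, 882 and 890, and at ZT18, with 816, 823 and 826 CPM against 684, 689 and 805. Slc27a5 had 822 ± 67.8 CPM (SD, n = 18) in WT and 868 ± 86.3 CPM (SD, n = 18) in KO livers, and its livers overlapped at every time (log2 fold change 0.08, SE 0.041, adjusted p = 0.450). With letter a left out, that log2 fold change was 0.02. Slc27a4, a transporter with acyl-CoA synthetase activity, was the steadiest of the 10, with 41.8 ± 2.71 CPM (SD, n = 18) in WT and 39.6 ± 2.23 CPM (SD, n = 18) in KO livers. Its log2 fold change of -0.07 (SE 0.026) had an adjusted p of 0.198. At ZT22 the KO livers had 40.4, 41.2 and 42.1 CPM, below the 44.5, 44.9 and 46.9 CPM of WT livers, and at ZT6 39.8, 39.9 and 40.5 CPM, below 41.2, 42.2 and 43.1. Slc27a1 had 8.93 ± 1.37 CPM (SD, n = 18) in WT and 9.40 ± 2.25 CPM (SD, n = 18) in KO livers (log2 fold change 0.07, SE 0.090, adjusted p = 0.818). Its lowest and highest KO values, 5.58 and 16.5 CPM, both came from ZT22, the highest from the liver labelled b, and without that liver the log2 fold change was 0.0054.

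Cd36 varied widely between livers of each genotype. WT livers ranged from 6.44 to 28.4 CPM with a median of 13.6, and KO livers from 9.18 to 55.2 CPM with a median of 17.97. The KO values reach higher, but 3 of 18 KO livers exceeded the highest WT liver. The log2 fold change of 0.37 (SE 0.191) was the largest of the 10 and had an adjusted p of 0.442. At ZT22 the KO livers had 17.5, 29.3 and 55.2 CPM and the WT livers 14.3, 14.9 and 16.7, without overlap (log2 fold change 1.15, SE 0.452, adjusted p = 0.938). The liver at 55.2 CPM was the one labelled b, and without it the log2 fold change at ZT22 was 0.61 (SE 0.471) and that over all times 0.27 (adjusted p = 0.623). At ZT14 the KO livers, with 20.1, 20.8 and 22.2 CPM, also lay above the WT livers, with 10.7, 17.4 and 18.8. At ZT6 the order of the means was the other way, 10.8 in KO and 14.9 CPM in WT, where 1 WT liver had 28.4 CPM.

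Of the binding proteins, Fabp1 had 3928 ± 485 CPM (SD, n = 18) in WT and 3595 ± 692 CPM (SD, n = 18) in KO livers. Its log2 fold change was -0.14 (SE 0.062, adjusted p = 0.348). The means stood furthest apart at ZT2 and ZT22. At ZT2 the KO livers had 2782, 2994 and 3094 CPM, all below the WT livers at 3692, 4178 and 4332 (log2 fold change -0.46, SE 0.141, unadjusted p = 0.00287, adjusted p = 0.864, edgeR). At ZT22 they had 2469, 2768 and 3075 CPM against 3074, 3480 and 3875, which touch by 1 CPM. From ZT6 to ZT18 the livers of both genotypes overlapped, and at ZT10 and ZT14 the KO mean was the higher.

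Fabp2 is known from enterocytes, and the enterocyte markers here were near 0 apart from Apoa4, which hepatocytes express as well. It had 55.6 ± 6.39 CPM (SD, n = 18) in WT and 48.2 ± 10.98 CPM (SD, n = 18) in KO livers (log2 fold change -0.22, SE 0.080, adjusted p = 0.212). At ZT22 the KO livers had 27.9, 31.0 and 47.5 CPM and the WT livers 51.0, 58.8 and 60.3, so every KO liver was below every WT liver. The log2 fold change at that time was -0.68 (SE 0.179, unadjusted p = 0.000721), with an adjusted p of 0.426 that does not pass. Without the mice of letter c, which removes the KO liver at 47.5 CPM, it was -1.02 with an adjusted p of 0.00518, and without the KO liver labelled b it was -0.53 with an adjusted p of 1. At ZT2 the KO livers had 38.1, 41.4 and 53.3 CPM against 51.1, 58.1 and 60.2, with overlap, and at ZT14 the KO mean was the higher, 60.4 against 54.6 CPM. A non-coding gene, 4933405D12Rik, overlaps Fabp2 on the opposite strand with 436 counts in all libraries, and Gm26697 overlaps Slc27a2 with 391. The libraries carry no strand information, so reads from bases that such a pair shares cannot be told apart. The overlap is that of whole gene spans, and whether exons overlap was not examined. The counts of the overlapping genes are small beside those of Fabp2 (63442) and Slc27a2 (1050606).

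Fabp4, the binding protein of adipocytes and of some endothelium, was among the lowest in counts, with 8.05 ± 2.15 CPM (SD, n = 18) in WT and 9.18 ± 2.61 CPM (SD, n = 18) in KO livers (log2 fold change 0.19, SE 0.088, adjusted p = 0.371). At ZT10 the KO livers had 8.27, 8.53 and 8.69 CPM and the WT livers 4.75, 5.81 and 7.32, without overlap. The 8 endothelial markers summed to 130 to 270 CPM in WT and 163 to 295 CPM in KO livers, and their part in the Fabp4 values was not tested. Fabp5 had the largest coefficient of variation of the 10 in WT livers (48.3%), with values from 27.5 to 138 CPM with a median of 68.0, and from 25.8 to 114 CPM with a median of 64.1 in KO livers (log2 fold change -0.16, SE 0.166, adjusted p = 0.764). Without the KO liver labelled b at ZT22 that log2 fold change was -0.10. The transcript of the processed pseudogene Gm6166 is 98.3% identical to that of Fabp5 and was itself counted at 39.0 ± 18.8 CPM (SD, n = 18) in WT and 36.1 ± 15.4 CPM (SD, n = 18) in KO livers. A second copy, Gm14328, was near 1 CPM. The counts of both copies come to 56.7% of those of Fabp5, so Fabp5 reads may be split among them and its level is uncertain. With the counts of both copies added to Fabp5, the log2 fold change was -0.13 (adjusted p = 0.820).

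**Figure D3:**
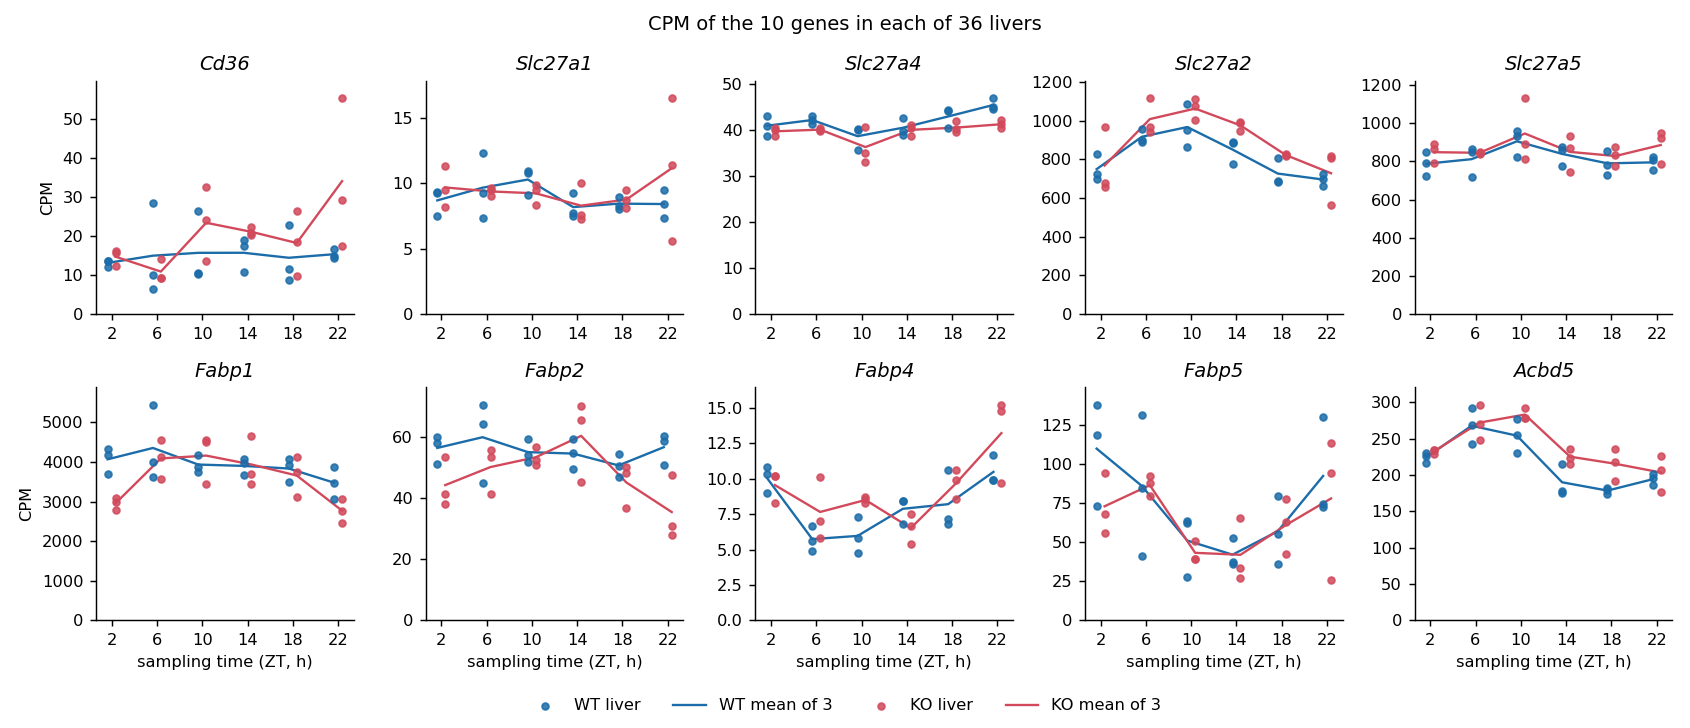
CPM of the 10 genes by sampling time, with 1 point per liver and lines through the means of 3 livers, WT in blue and KO in red. Each vertical axis starts at 0 and has its own range. Acbd5 and Slc27a2 follow a daily course in both genotypes, the KO livers of Fabp1 and Fabp2 are low at ZT22, and 1 KO liver of Cd36 at ZT22 stands at 55.2 CPM.

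At single sampling times no pair of a gene and a time passed among 60 (edgeR, adjusted over all genes at each time). The shares of all genes that passed were 0.0278% at ZT2, 0.0111% at ZT6, 0.0167% at ZT10, 0.0167% at ZT14, 0.0222% at ZT18 and 0.0222% at ZT22. In 12 of the 60 pairs, or 20.0%, the 3 KO livers did not overlap the 3 WT livers, with 8 above and 4 below, against 9.96% of all pairs of genes and times. These 12 fell in 7 genes: Acbd5 with 3, Cd36, Slc27a2 and Slc27a4 with 2 each, and Fabp1, Fabp2 and Fabp4 with 1 each. The study had already singled out Slc27a2, Slc27a4, Fabp1 and Fabp2 from these same mice. The 10 genes were also chosen with earlier results known, so the share of 20.0% is no independent evidence of a difference. The test of whether the genotype difference changed with time (5 interaction coefficients, edgeR) called none of the 10 genes and 0% of all genes. By adjusted p, DESeq2 also called 0 of the 10. At an unadjusted p under 0.05 edgeR gave 0 of the 10 and 484 of the 17994 tested genes. DESeq2 gave Fabp2 (unadjusted p = 0.0407) and Fabp4 (unadjusted p = 0.0486). The share of all genes under this threshold by DESeq2 is not given here, so these values cannot be set against a background. In the main edgeR fit the lowest unadjusted p values of the 10 were 0.0551 for Fabp2, 0.0665 for Fabp4 and 0.0834 for Fabp1.

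**Figure D4:**
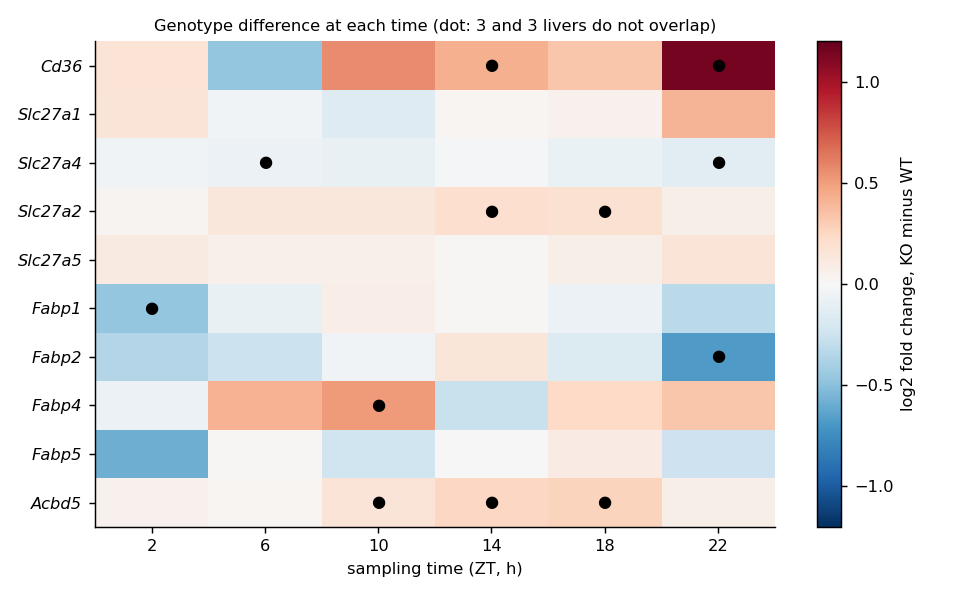
Log2 fold change (KO minus WT) of each gene at each sampling time, in color from blue (lower in KO) to red (higher in KO). A dot marks the 12 pairs in which the 3 KO and 3 WT livers do not overlap. The strongest colors are Cd36 and Fabp2 at ZT22 in opposite directions.

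The daily course was asked next, with a cosine of 24 h fitted to each genotype. In WT livers 4 of the 10 genes had a rhythm at an adjusted p under 0.05 (edgeR), namely Slc27a2, Fabp4, Fabp5 and Acbd5, against 35.1% of all genes. In KO livers there were 5, namely Slc27a2, Fabp1, Fabp2, Fabp4 and Acbd5, against 31.5%. The 3 genes Slc27a2, Fabp4 and Acbd5 passed in both genotypes, where 24.5% of all genes did. These shares are near the background.

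Acbd5 had the clearest rhythm of the 10, with an amplitude of 0.30 (SE 0.036, log2 CPM) and a peak at ZT6.51 (SE 0.462 h) in WT livers (adjusted p = 9.2e-07, edgeR). In KO livers its amplitude was 0.24 (SE 0.038) and its peak at ZT8.13 (SE 0.614 h), with an adjusted p of 6.1e-05. Its WT means ran from 268 CPM at ZT6 to 179 CPM at ZT18, and its KO means from 283 CPM at ZT10 to 204 CPM at ZT22. Slc27a2 also peaked in the light phase, at ZT9.31 (SE 0.544 h) in WT and ZT10.3 (SE 0.737 h) in KO livers, with amplitudes of 0.25 (SE 0.035) and 0.30 (SE 0.058). Its adjusted p was 0.000391 in WT and 7.4e-05 in KO livers. Fabp4 peaked late in the dark phase, at ZT21.6 (SE 0.831 h) in WT and ZT22.6 (SE 1.09 h) in KO livers. Its WT means went from 5.73 CPM at ZT6 to 10.5 CPM at ZT22 and its KO means from 6.51 CPM at ZT14 to 13.2 CPM at ZT22. The fitted KO peak of all 3 was 0.94 to 1.62 h later than the WT peak, and the test of the rhythm difference passed for none of them.

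Fabp5 had the largest amplitude of the 10 in WT livers, 0.70 (SE 0.175), with a peak at ZT1.39 (SE 0.958 h) and an adjusted p of 0.00409. Its WT mean was 110 CPM at ZT2 and 42.0 CPM at ZT14, which is 2.61 times lower. In KO livers it had an amplitude of 0.48 (SE 0.196), a peak at ZT1.87 and an adjusted p of 0.0625, which does not pass. Without the KO liver labelled b at ZT22, which was the lowest of the 36 for Fabp5 at 25.8 CPM, the adjusted p in KO livers was 0.0121. With the counts of its 2 copies added, the adjusted p was 0.00440 in WT and 0.0588 in KO livers.

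Fabp1 and Fabp2 showed a rhythm in KO livers and did not pass in WT livers. In KO livers Fabp1 peaked at ZT10.9 (SE 0.823 h) with an amplitude of 0.30 (SE 0.064, adjusted p = 0.000686), and Fabp2 at ZT10.99 (SE 1.09 h) with an amplitude of 0.32 (SE 0.091, adjusted p = 0.00410). In WT livers the amplitudes were 0.10 (SE 0.054, adjusted p = 0.327) and 0.08 (SE 0.054, adjusted p = 0.625). The KO mean of Fabp1 was 2771 CPM at ZT22 and 4161 CPM at ZT10, a ratio of 1.502, and that of Fabp2 35.5 CPM at ZT22 and 60.4 CPM at ZT14, a ratio of 1.70. The difference in rhythm between genotypes was tested itself (2 coefficients, edgeR). No gene passed, which is 0% of all genes and none of the 10, and DESeq2 called none of the 10 either. Fabp2 and Fabp1 had unadjusted p values of 0.0104 and 0.0158 from edgeR. These were the 2 of the 10 genes under 0.05, where 3.07% of all genes were. Without the mice of letter a the unadjusted p values of Fabp2 and Fabp1 were 0.164 and 0.0967 (edgeR). With letter within sampling time as a block they were 0.00293 and 0.00263 (edgeR), and neither gene passed by adjusted p in these settings. The KO rhythm of Fabp2 did not pass without the mice of letter a (adjusted p = 0.208), and that of Fabp1 passed in 10 of 10 settings. Without the liver labelled b at ZT22, which had the lowest Fabp1 and Fabp2 of the 36, the KO rhythm of Fabp2 passed with an adjusted p of 0.0166.

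Cd36, Slc27a1 and Slc27a5 had no rhythm that passed in either genotype. The adjusted p of Cd36 was 0.940 in WT and 0.249 in KO livers, although its KO means ranged from 10.8 CPM at ZT6 to 34.0 CPM at ZT22. Slc27a4 missed the threshold in WT livers (adjusted p = 0.0558, amplitude 0.09, SE 0.025, peak ZT21.9), where it passed with DESeq2 (adjusted p = 0.0365) and with edgeR's filterByExpr (adjusted p = 0.0452), and had an amplitude of 0.06 (SE 0.026) in KO livers with an adjusted p of 0.228.

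**Figure D5:**
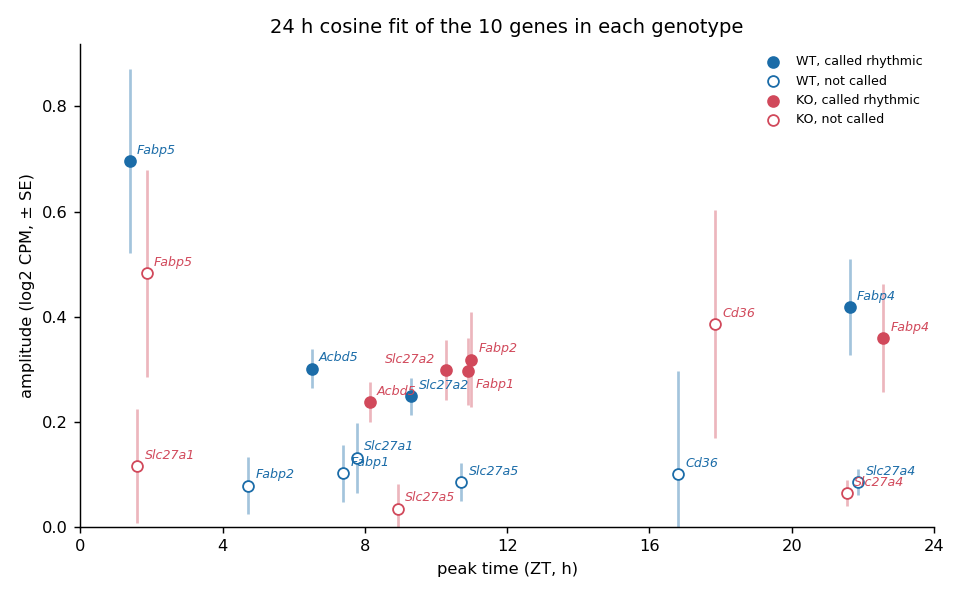
Amplitude (log2 CPM, bars of 1 standard error) against peak time (ZT, h) of the 24 h cosine for each gene, WT in blue and KO in red. Filled points passed the rhythm test and open points did not. Fabp1, Fabp2 and Slc27a2 of KO livers sit together between ZT10.3 and ZT10.99, and Fabp4 lies near ZT22 in both genotypes.

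Further rhythm calls changed when all mice of 1 letter were left out, which removes 1 mouse from each group, or under another setting. Fabp4 lost its WT rhythm without the mice of letter b (adjusted p = 0.109) and its KO rhythm without letter a (0.0532) or letter b (0.0887). Fabp5 lost its WT rhythm without letter c (0.0717) and with sampling time as a factor (0.0680).

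A wider list of 29 genes of fatty acid and lipoprotein handling was examined beside the 10, and 25 of them were tested. Fabp3, Fabp6, Fabp9 and Acbd7 had under 100 counts. None of the 25 passed the genotype test, where 0.95% of all genes did, and their median log2 fold change was -0.0049. At an unadjusted p under 0.05 there were 1 higher and 2 lower, against 12.1% of all genes. In WT livers 12 of the 25 had a rhythm, in KO livers 11, and in both 7, against 35.1%, 31.5% and 24.5% of all genes. Of the 12 regulators listed, such as the fatty acid receptor gene Ppara and its partner Rxra, none passed the genotype test. A rhythm was found for 8 of them in WT livers and 7 in KO livers, against the same 35.1% and 31.5% of all genes. The largest WT amplitudes among the genes of both lists rhythmic in both genotypes were those of Mfsd2a, Ppard and Slc27a3. Mfsd2a, a lysophosphatidylcholine transporter, had an amplitude of 1.58 (SE 0.197) and a peak at ZT12.4 in WT livers and 1.40 (SE 0.215) and ZT12.3 in KO livers. Ppard, a nuclear receptor of fatty acids, had 1.46 (SE 0.197) and ZT21.8 in WT livers and 1.58 (SE 0.161) and ZT22.0 in KO livers. Slc27a3, a transporter at 2.35 CPM in WT livers, had 0.72 (SE 0.148) and ZT18.1 in WT livers and 0.48 (SE 0.138) and ZT20.4 in KO livers. The WT amplitudes of Mfsd2a and Ppard exceed the largest of the 10 genes, that of Fabp5 (0.70, SE 0.175). That of Slc27a3 lies within 1 standard error of the Fabp5 amplitude.

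The genes whose log2 CPM followed each of the 10 most closely over the 36 livers were found among 9470 genes with a mean of at least 5 CPM. The livers share sampling times and genotypes, and these Pearson correlations are given as a description. Acbd5 was followed by Heca (r = 0.915), Kif1b (0.912) and Pnpla8 (0.911), a phospholipase gene. Slc27a2 was followed by genes including Eci2 (0.869) and Acot12 (0.867), of which Eci2 encodes an enoyl-CoA isomerase and Acot12 an acyl-CoA thioesterase. For Fabp1 the nearest were Grpel1 (0.839), Csnk2b (0.818) and Fis1 (0.813), which encodes a protein of mitochondrial and peroxisomal fission. For Fabp4 they were Eng (0.794), which is one of the 8 endothelial markers, Anxa2 (0.781) and Pxdn (0.771). The nearest to Fabp5 was its copy Gm6166 (0.967), then Pnpla7 (0.789) and Psmg2 (0.761). Slc27a5 was followed by Pdk2 (0.775), Selenbp1 (0.770) and Ptprd (0.747), and Slc27a4 by Cyb5rl (0.734), Ap2b1 (0.722) and Gbf1 (0.700). Fabp2 had Mettl26 (0.719), Pbld2 (0.690) and Slc25a1 (0.654), and Cd36 had the phenobarbital-responsive Cyp2b10 (0.670), Akr1d1 (0.670) and Acer2 (0.660). The lowest values were those of Slc27a1, with Ctps2 (0.612), Tubgcp3 (0.603) and Hamp2 (0.589).

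Once the mean of each genotype and time was removed, the 10 genes showed no pair that varied together beyond the threshold. Of 45 pairs over 36 livers, none had an adjusted p under 0.05 (two-sided permutation test within genotype and time, 100000 resamples, Benjamini-Hochberg over the pairs). The largest r in size was that of Slc27a1 with Fabp5, at r = -0.59 (p = 0.0418, adjusted p = 0.466, permutation) and Spearman's rho = -0.49 (p = 0.0241, adjusted p = 0.362, permutation). Without the 2 livers farthest from the median of Slc27a1, r was -0.47. The lowest p was that of Cd36 with Fabp4, at r = 0.57 (p = 0.00518, adjusted p = 0.233, permutation) and Spearman's rho = 0.51 (p = 0.0117, adjusted p = 0.362, permutation). Without the 2 livers farthest from the median of Cd36, r was 0.50. The next by p was Slc27a2 with Acbd5, at r = 0.47 (p = 0.0163, adjusted p = 0.367, permutation) and rho = 0.43 (p = 0.0242, adjusted p = 0.362, permutation), and r was 0.42 without the 2 farthest livers.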

How the data were processed

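Gene counts of 36 livers were used, grouped by the genotype, sampling time and letter in the labels. Per the study's methods and the submitters' processing notes, the authors removed low-quality reads, mapped the rest to GRCm38 with HISAT2, counted reads per gene with featureCounts and deposited whole-number counts without normalization. Versions, strand setting and treatment of reads with several matches are not given in the sources used here, and reads can move between near-identical genes. Each library held 29063273 to 42530551 counts, so the scarcest genes rest on few reads. These count totals limit precision for counting error only.

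Genes with at least 100 counts over all libraries (17994) were tested with edgeR 4.0.16 (TMM, glmQLFit, glmQLFTest; limma 3.58.1, R 4.3.3), with P-values adjusted by Benjamini-Hochberg at 0.05 over all of them. The models held genotype with sampling time as a factor, genotype at each time with 5 interaction coefficients, and a 24 h cosine and sine per genotype. Amplitude and peak come from a cosine fit to log2 CPM with a prior count of 2. DESeq2 1.42.0, other size factors and filters, left-out mice, pairing by letter, pooled times and time as a factor were alternatives. Leaving out the KO liver labelled b at ZT22, adding the Fabp5 copies and using transcript lengths were chosen after the values were seen. Copies of a gene were transcripts at least 95% identical along 80% or more of their own length (BLAST 2.17.0, GENCODE annotation), and promoters came from RefSeq (GRCm38.p6). Correlations used Python 3.11.15 with scipy 1.17.1. The scripts for the tests were tested on simulated data.

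The genes, lists and tests were chosen with earlier results of these data known. All 10 genes are named. Of the wider lists, genes passing the genotype test and the 3 largest WT amplitudes among those rhythmic in both genotypes were to be named, and for likeness the 3 highest correlations, of which 1 is not reported here. Mice of a group are separate animals. Files of other experiments of the study were not analysed here.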

Additional observations from a re-analysis of the deposited data

How the results depend on the processing

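With DESeq2, 1 of the 10 genes passed the genotype test (Acbd5) in place of 0, and the other alternatives gave 0. With mice left out, the genes rhythmic in KO livers numbered 3 to 6 and the pairs of a gene and a time that passed numbered 0 to 1, the 1 being Fabp2 at ZT22 without letter c. Of 100 alternatives for the 10 genotype differences, 99 kept direction and side of the threshold. Of the alternatives for peaks and amplitudes, 81 moved by at most 1 standard error and 9 by more. Over all genes, 315 passed the genotype test with DESeq2, 65 with times pooled and 42 to 143 with mice left out, in place of 171. Rhythms in WT livers numbered 3827 without letter c in place of 6315, and in KO livers 3486 and 3130 without letters a and c in place of 5675. At single times 2 to 5 genes passed, against 1 to 5 with mice left out, up to 19 with DESeq2 and up to 15 without a filter, both highest at ZT22. WT and KO mice share the letters a, b and c at each time. Of 18 such pairs 9 had a correlation of deviations over 0.1 (from -0.038 to 0.225), and all but that of ZT14c were positive. The labels also carry a number for each liver. In several same-letter pairs of WT and KO these numbers are consecutive, and in others they are not. What the numbers stand for is not given. The labels do not say whether a letter marks mice handled together, and the correlations do not settle it. The main tests did not take the letters as pairs, and a fit with letter within sampling time as a block was an alternative. With the replicate block 385 genes passed the genotype test, 8 at ZT6, 8 at ZT18 and 9 at ZT22, 1 had a rhythm difference, and 0 of the 10 genes passed any of these. Near 10 CPM, as for Fabp4 and Slc27a1, single livers rest on 143 to 613 counts.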
